A study of Homo sapiens with 6 samples.

Results

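AQP3, SCNN1A, SCNN1B, SCNN1G, SGK1, NEDD4L, ATP1B1 and ATP1B3 are 8 genes of epithelial water and sodium transport, taken by name from the 58302 gene entries of the deposited table. The set was chosen by transport function and by the counts of this comparison: AQP3 and SCNN1A had been seen to be strongly lower in siKMT2C than in siNC, so every difference between the groups in these 8 genes is given as a description, with no test. All 8 were found in the table. A filter on low counts kept 6 of them; SCNN1B and SCNN1G did not pass it.

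The data are 6 RNA sequencing libraries of Ker-CT cells, an immortalised line of human skin keratinocytes. In 3 libraries the cells had received siRNA against the histone methyltransferase gene KMT2C (siKMT2C), and in the other 3 siNC, the control arm of the design. Both groups shared 24 h of M5, a mixture of IL-17A, IL-22, TNF-α, IL-1α and oncostatin M (10 ng/ml of each) used as a cell model of psoriasis. Per the labels the groups differ in the siRNA, unstimulated cells were not analysed here, and a single cell line stands for the tissue.

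Aquaporin channels let water cross the plasma membrane along its osmotic gradient, and AQP3, the main aquaporin of the basal epidermis, also passes glycerol, which is known for its part in skin hydration. Sodium enters many epithelia through the epithelial sodium channel ENaC, built from the α, β and γ subunits encoded by SCNN1A, SCNN1B and SCNN1G. The ubiquitin ligase NEDD4L removes ENaC from the membrane, and the kinase SGK1, induced by steroids and osmotic stress, phosphorylates and restrains NEDD4L. The sodium pump, Na,K-ATPase, then moves sodium out of the cell; it pairs a catalytic α subunit with a β subunit such as the products of ATP1B1 and ATP1B3, which is needed for its delivery to the membrane.

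Promoter sequence was available in RefSeq (GRCh38.p14) for 6 of the 8 genes, as 12 windows from 250 bases before to 50 after a start site. Bases upstream of the AQP3 start and of 3 SGK1 starts are shown because these are the promoters among the 12 that hold the letters TATAAA, in capitals, on one strand or the other (TTTATA is the same word read on the opposite strand). SGK1 has alternative starts, 3 of them in the table.
AQP3, chr9:33447594-33447843, minus strand: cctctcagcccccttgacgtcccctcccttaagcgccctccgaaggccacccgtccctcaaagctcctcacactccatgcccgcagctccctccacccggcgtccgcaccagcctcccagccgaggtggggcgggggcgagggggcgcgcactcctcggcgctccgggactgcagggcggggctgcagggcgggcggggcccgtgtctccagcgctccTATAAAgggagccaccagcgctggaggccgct
SGK1, chr6:134318191-134318220, minus strand: aacggtgtgcaaTTTATAtgaaactctgat
SGK1, chr6:134177862-134177891, minus strand: cttaaattgccttgaTATAAAgtggggttc
SGK1, chr6:134174876-134174905, minus strand: ggcggtgcctttTTTATAaggccgagcgcg

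In AQP3 the match begins 32 bases before the start site, and in the 3 SGK1 stretches 96, 15 and 27 bases before theirs, in the order printed. TATAAA on either strand occurred in 11.5% of the 35116 promoter windows of the same length. The AQP3 window was 75.3% G and C with 31 CpG dinucleotides, against a median of 58.7% (quartiles 47% and 68%) and 14 CpG over all windows. The single windows of ATP1B1 (77%, 41 CpG) and ATP1B3 (75%, 45 CpG) were as rich in G and C, whereas the 5 windows of NEDD4L lay between 39.7% and 51%. Both strands were also searched for the words TGANTCA (bound by AP-1), AACCNGTT (grainyhead factors), TTCNNNGAA (STAT factors) and the longer words of NF-κB and of the glucocorticoid receptor. AQP3, SCNN1B, SGK1, ATP1B1 and ATP1B3 held none of these 5 words in their windows. NEDD4L held TTCNNNGAA 3 times over 2 of its windows and TGANTCA in another; 7.66% and 7.71% of all windows hold those words. These are matches of letters, not measured binding sites.

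Levels are given as CPM, counts per fixed number of library reads after TMM correction, which adjusts each library's size for its composition. Library totals ran from 14409277 to 17539519 counts, and mitochondrial transcripts took 4.83% to 6.65%. KMT2C itself was at 32.0, 30.8 and 27.3 CPM in siKMT2C replicates 1 to 3 and at 87.9, 82.0 and 72.6 CPM in siNC. The targeted gene was thus lower in all 3 libraries of its own siRNA, without overlap. Among libraries of 1 group, siNC replicate 3 lay farthest from its partners. The chi-square of its counts per degree of freedom was 73.7 against siNC replicate 1 and 49.9 against siNC replicate 2. Those 2 gave 16.7 against each other, and the siKMT2C pairs gave 22.6 to 41.3. Across groups, siNC replicate 3 gave 39.7 against siKMT2C replicate 3, lower than against either siNC partner. The cause was not tested.

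Keratinocyte markers were abundant: all 8 (KRT5, KRT14, TP63, ITGA6, SFN, DSP, DSC3 and CDH1) were tested and summed to 9290 to 13400 CPM in siKMT2C and 10200 to 15400 CPM in siNC. KRT14 and KRT5 carried that sum. Of the 8, 7 had log2 fold changes below 0, as had 50.3% of all tested genes. TP63 (-0.69, SE 0.20), ITGA6 (-0.51, SE 0.11) and DSP (-0.37, SE 0.11) were lower in every siKMT2C library than in any siNC library. So were 12.3% of all tested genes, and none of the 8 markers was called. Of the 5 immune markers PTPRC and CD3E were at 0 counts, of the 4 endothelial ones PECAM1 and CDH5, and of the 5 melanocyte ones TYR and DCT. The summed immune markers, mostly CD68, ran from 13 to 14.6 CPM in siKMT2C and from 9.73 to 14.5 CPM in siNC. CD14 went the other way at a low level, at 0.123 to 0.321 CPM in siKMT2C and 0.969 to 1.07 CPM in siNC (log2 fold change -2.23, SE 0.43, not called). Melanocyte markers ran from 6.67 to 8.35 and from 6.99 to 15.1 CPM. The 6 fibroblast markers, none at 0, summed to 13.2 to 17.3 CPM in siKMT2C and 20.4 to 30.4 CPM in siNC. Of the 4 tested, COL1A1 (-0.77, SE 0.19) and DCN (-1.57, SE 0.32) were lower without overlap. COL1A2 (-0.33, SE 0.54) overlapped between groups, as did COL3A1 (0.78, SE 0.52), which lay on the other side of 0. The part of these markers in the results that follow was not tested. The 4 endothelial markers reached at most 0.0642 CPM in siKMT2C and 0.208 CPM in siNC. Of 4 markers of the principal cells of the renal collecting duct, the classical ENaC-expressing cell, AVPR2 was at 0 and the sum reached at most 0.707 CPM in siKMT2C and 0.563 CPM in siNC. In such bulk libraries, fewer cells of a kind and less RNA per cell cannot be told apart.

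AQP3, the water and glycerol channel (ENSG00000165272; chromosome 9, 33441154 to 33447633, minus strand, GENCODE 29 on GRCh38), was at 1.71, 1.22 and 3.19 CPM in siKMT2C replicates 1 to 3. In siNC it was at 9.04, 6.23 and 14.5 CPM. Every siKMT2C library was below every siNC library for AQP3, and replicate 3 was the highest in both groups. Behind these levels stood 28, 19 and 52 counts in siKMT2C and 158, 90 and 258 in siNC. AQP3 averaged 2.04 ± 1.03 against 9.93 ± 4.22 CPM (SD, n = 3), or 20.6% of the control mean. On the log2 scale the difference was -2.28 (SE 0.43), a 4.85-fold lower level, and 23 of the 15063 genes tested had a value as low or lower. AQP3 itself and SCNN1A are among these 23. Both had been chosen as strongly lower, so this rank does not measure how unusual AQP3 is. Without siNC replicate 3, the library farthest from its siNC partners, the difference was -1.91 (SE 0.39).

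SCNN1A, the α subunit of ENaC (ENSG00000111319; chromosome 12, 6346843 to 6377730, minus strand), was at 1.28, 1.80 and 1.84 CPM in siKMT2C. Its siNC libraries held 5.84, 10.4 and 7.83 CPM. The groups again did not overlap, and the highest siNC library was replicate 2, the one in which AQP3 was lowest. The counts were 21, 28 and 30 in siKMT2C and 102, 150 and 139 in siNC. SCNN1A averaged 1.64 ± 0.311 CPM against 8.02 ± 2.28 CPM (SD, n = 3), or 20.5%, a log2 difference of -2.28 (SE 0.29). Without siNC replicate 3 it was -2.30 (SE 0.32). Its exons share 422 bases with those of LTBR, a TNF-family receptor gene on the opposite strand, and without strand information reads from those bases cannot be told apart. LTBR was at 77.7 to 92.9 CPM in siKMT2C and 85.4 to 109 CPM in siNC, with overlap.

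**Figure D1:**
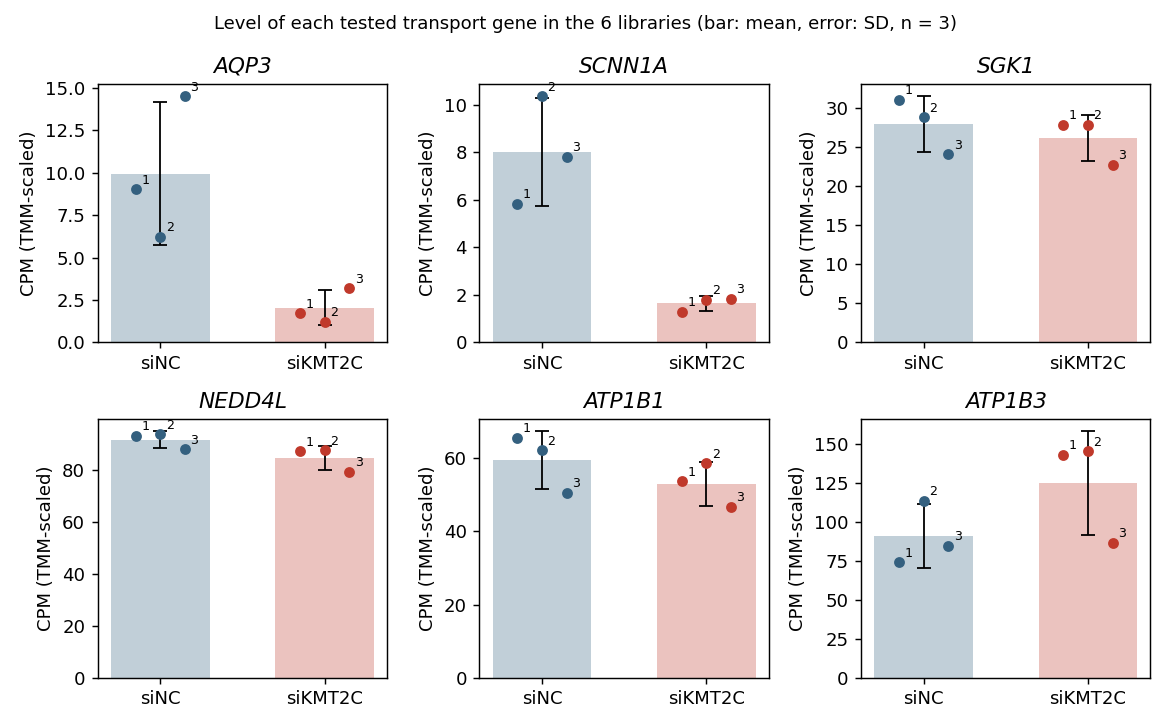
Level of each of the 6 tested genes in TMM-scaled CPM (vertical axes from 0) in the 3 siNC (blue) and 3 siKMT2C (red) libraries, numbered by replicate, with the mean as a bar and the SD as the error. AQP3 and SCNN1A lie at 1.22 to 3.19 CPM in siKMT2C and 5.84 to 14.5 CPM in siNC, while SGK1, ATP1B1 and ATP1B3 overlap between the groups.

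The other ENaC subunits were nearly undetected. SCNN1B, the β subunit (ENSG00000168447; chromosome 16, 23278231 to 23381299), had 0 counts in all 6 libraries, which allows up to 0.0306 CPM over the libraries together and 0.169 to 0.208 CPM in a single library (3 counts, counting error only). SCNN1G, the γ subunit (ENSG00000166828; chromosome 16, 23182715 to 23216883), had 1 count, in siNC replicate 3. The α subunit was thus the only one of the 3 whose level could be compared between groups. SCNN1D, which encodes the δ subunit, was low and uneven, at 0.734, 0.385 and 0.307 CPM in siKMT2C and 1.20, 0.277 and 1.52 CPM in siNC (log2 fold change -1.08, SE 0.62, edgeR adjusted p = 0.432). ASIC3, a subunit of the related acid-sensing channels, was at -0.63 (SE 0.43, edgeR adjusted p = 0.518), and ASIC1 at -0.11 (SE 0.20). All 3 of these other subunits that were tested had values below 0 (median -0.63), and their groups overlapped.

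The regulators of the channel differed little. SGK1, the kinase (ENSG00000118515; chromosome 6, 134169246 to 134318112), was at 27.8, 27.8 and 22.7 CPM in siKMT2C and 31.0, 28.8 and 24.1 CPM in siNC. The groups overlapped, and the log2 difference was -0.10 (SE 0.16). NEDD4L, the ubiquitin ligase (ENSG00000049759; chromosome 18, 58044367 to 58401540), was at 87.0, 87.5 and 79.3 CPM in siKMT2C and 93.1, 93.7 and 87.9 CPM in siNC. Its groups were separated only narrowly, by 87.5 against 87.9 CPM, and the log2 difference was -0.11 (SE 0.12). In SGK1 and NEDD4L alike, replicate 3 was the lowest of each group.

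The values of the pump's β subunits lay on opposite sides of 0, with groups that overlapped in both. ATP1B1 (ENSG00000143153; chromosome 1, 169105697 to 169132722) was at 53.7, 58.7 and 46.7 CPM in siKMT2C and 65.6, 62.2 and 50.6 CPM in siNC. The groups overlapped and the log2 difference was -0.16 (SE 0.16). ATP1B1 shares 192 exon bases with NME7, on the opposite strand, which was at 27.3 to 37.6 CPM in siKMT2C and 23.5 to 32.1 CPM in siNC. ATP1B3 (ENSG00000069849; chromosome 3, 141876124 to 141926514) was at 142.7, 144.9 and 86.6 CPM in siKMT2C and 74.1, 113.4 and 84.6 CPM in siNC. Replicates 1 and 2 of siKMT2C were above every siNC library, but replicate 3 lay among them, and the log2 difference was 0.46 (SE 0.24). The pseudogenes ATP1B1P1 and ATP1B3P1 held 13 and 25 counts in all libraries together, against 761 or more per library in each parent gene.

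Within a library, the ratio of ATP1B3 to ATP1B1, each per kilobase of exon, was 3.05, 2.83 and 2.12 in siKMT2C and 1.29, 2.09 and 1.92 in siNC. The ratio did not overlap between groups, though 2.12 and 2.09 are close. Its mean was 2.67 ± 0.483 against 1.77 ± 0.418 (SD, n = 3). The other β subunits were scarce: ATP1B4 had 0 counts, and ATP1B2 did not pass the filter.

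To compare genes with each other, CPM was divided by the kilobases of exon that GENCODE 29 gives each gene. In siNC the order was ATP1B3 (35.1 ± 7.89 CPM per kilobase, SD, n = 3), ATP1B1 (20.1 ± 2.66), NEDD4L (5.25 ± 0.184), AQP3 (3.37 ± 1.43), SGK1 (2.80 ± 0.356) and SCNN1A (1.36 ± 0.388), followed by SCNN1G and SCNN1B at or near 0. AQP3 and SGK1 could not be ordered there, since AQP3 spanned 2.11 to 4.93 and SGK1 2.41 to 3.10 CPM per kilobase; the other neighbouring pairs down to SCNN1A had ranges that did not meet. In siKMT2C AQP3 (0.692 ± 0.348) dropped below SGK1 (2.61 ± 0.294) in all 3 libraries, and SCNN1A was again lower (0.279 ± 0.0528). The ranges of AQP3 and SCNN1A did not meet in siKMT2C either, with AQP3 at 0.414 CPM per kilobase or more and SCNN1A at 0.314 or less. The deposited FPKM gave the same order in both groups, but put ATP1B3 and ATP1B1 level in siNC, at 13.73 and 13.71. The lengths implied by the FPKM values were 1.48 times the GENCODE exon length for ATP1B1 and 1.87 to 2.64 times for the other 5 genes.

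**Figure D2:**
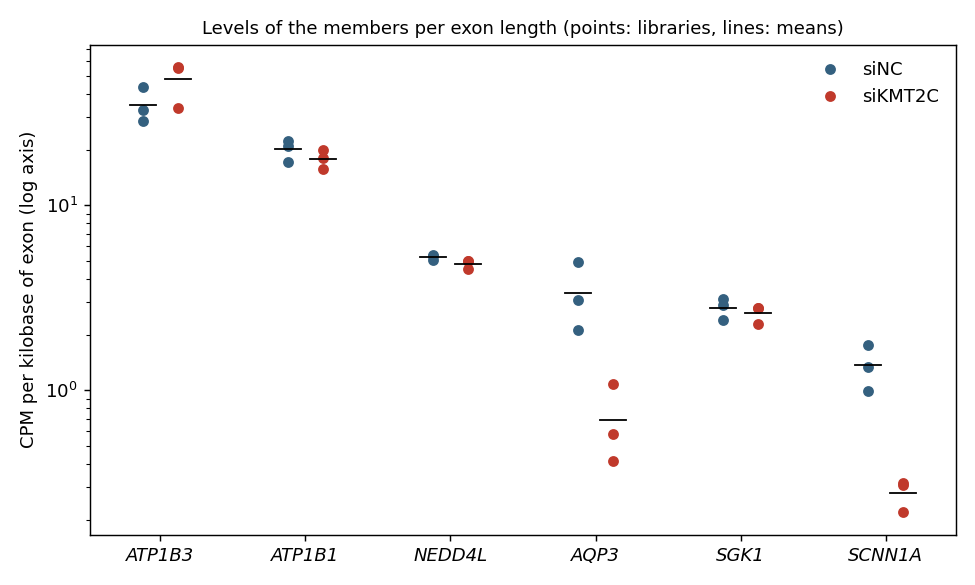
Level per kilobase of exon (log axis) of the 6 tested genes in each siNC (blue) and siKMT2C (red) library, with group means as lines, ordered by the siNC mean. ATP1B3 leads in both groups, and AQP3 moves from 3.37 CPM per kilobase, level with SGK1, to 0.692, below it.

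Over the whole comparison 1.5% of the 15063 tested genes were called at an adjusted p under 0.05 (edgeR quasi-likelihood test, Benjamini-Hochberg over all tested genes), 104 higher, which is 0.69%, and 122 lower, which is 0.81%. No call is given for the 8 genes, since this contrast chose them. Of the 6 that passed the filter, 3 (AQP3, SCNN1A and NEDD4L) had groups that did not overlap, with siKMT2C the lower. So had 12.3% of all tested genes. The 2 shares cannot be compared, because AQP3 and SCNN1A had been chosen as strongly lower, and NEDD4L was separated only narrowly. SGK1, NEDD4L and ATP1B1 lay well inside the bulk of genes, with 31.8% to 39% of tested genes at or below their values, and 90.6% lay at or below ATP1B3.

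**Figure D3:**
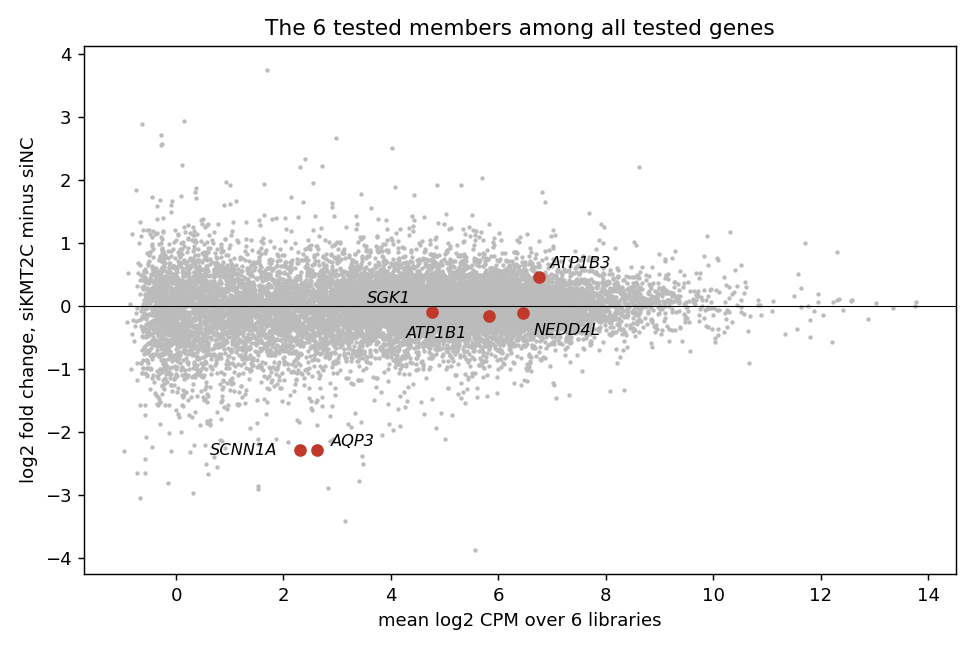
Log2 fold change (siKMT2C minus siNC) of every tested gene (grey) against its mean log2 CPM over 6 libraries, with the 6 transport genes in red. AQP3 and SCNN1A sit at -2.28 on the lower edge at a low mean level, and the other 4 lie between -0.16 and 0.46.

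With any 1 library left out, AQP3 and SCNN1A stayed lower in siKMT2C. This had to follow, since their groups did not overlap, so only the size of the change is informative. AQP3 then ranged from -2.75 (without siKMT2C replicate 3) to -1.91 (without siNC replicate 3), and SCNN1A from -2.46 (without siNC replicate 1) to -2.05 (without siNC replicate 2). ATP1B3 ranged from 0.33 to 0.67, SGK1 from -0.20 to -0.01, NEDD4L from -0.15 to -0.07 and ATP1B1 from -0.28 to -0.08.

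**Figure D4:**
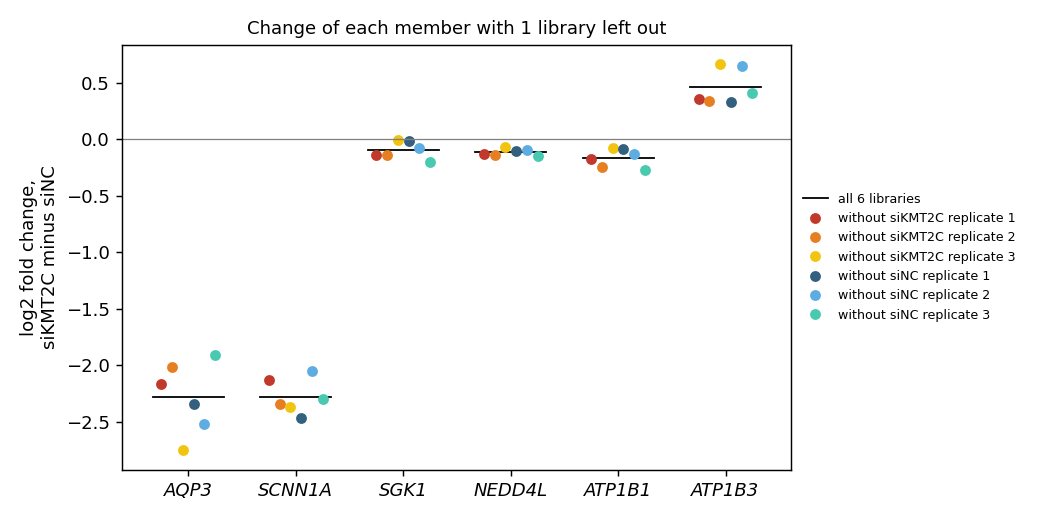
Log2 fold change of each tested gene with all 6 libraries (black line) and with each library left out in turn (coloured points). AQP3 and SCNN1A stay between -2.75 and -1.91, the other 4 between -0.28 and 0.67, and no point crosses to the other side of 0. For AQP3 and SCNN1A, whose groups do not overlap, no crossing was possible.

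Other genes of water and sodium handling were taken in 9 lists of 106 genes, without the 8 above; 105 of them matched an entry of the table. Of these genes 68 were tested, and none was called by edgeR at an adjusted p under 0.05 (1.5% of all tested genes). At an unadjusted p under 0.05 there were 18 (26.5%, against 16.9% of all tested genes). With limma-voom 0 of the 68 were called, against 212 of all 15063 genes that passed the filter. DESeq2 called 7 of the 68 (WNK4, YWHAB and KCNK1 higher, and FXYD3, CLCA2, KLF9 and NDFIP2 lower), against 864 of the 15063. Values were below 0 in 48 of the 68 (70.6%, against 50.3% of all tested genes), with a median log2 fold change of -0.12 (all tested genes: -0.003). Groups did not overlap in 20 of the 68 (29.4%, against 24.1% of all tested genes), 13 of them with siKMT2C the lower. The plot of the lists shows their spread around 0.

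Among 11 further aquaporins only AQP11, an aquaporin of intracellular membranes, was tested, at 0.622 against 1.07 mean CPM in siNC (log2 fold change -0.79, SE 0.38, edgeR adjusted p = 0.355). The others held at most 0.298 mean CPM, in AQP10, and per kilobase AQP11 reached a mean of 0.259 CPM in siKMT2C and 0.448 CPM in siNC, below AQP3 in both groups. For glycerol handling, 5 of 6 genes were tested. The phospholipase PLD1 had a log2 fold change of -0.60 (SE 0.18, edgeR adjusted p = 0.142) with groups that did not overlap, and GPD1L had -0.12 (SE 0.16). PLD2, which makes phosphatidylglycerol from glycerol and associates with AQP3, was level at -0.03 (SE 0.18).

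ENaC is activated by proteases that clip its α and γ subunits. Of 10 such proteases and their inhibitors 8 were tested, 7 with values below 0 and a median of -0.12. PRSS8, the channel-activating protease prostasin, was at 64.3, 52.5 and 71.7 CPM in siKMT2C and 74.2, 84.3 and 109.6 CPM in siNC. Its groups did not overlap, yet it was not called (-0.51, SE 0.19, edgeR adjusted p = 0.224). PLAU, the urokinase gene, was at 820 to 862 CPM against 1031 to 1126 CPM in siNC, also without overlap (-0.34, SE 0.10, edgeR adjusted p = 0.154). FURIN (-0.26), the matriptase gene ST14 (-0.14) and the inhibitors SPINT1 (-0.10) and SPINT2 (-0.07) overlapped between groups.

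Of 22 genes around SGK1 and NEDD4L 20 were tested, 11 with negative and 9 with positive values and a median of -0.01. Groups did not overlap in 6 of the 20 (30%, against 24.1% of all tested genes). In 5 of them siKMT2C was the higher, and in 1 the lower. Over all tested genes 11.8% were higher and 12.3% lower without overlap. WNK4, a kinase that regulates renal sodium transport, was at 4.16, 4.30 and 3.56 CPM in siKMT2C and 1.43, 1.73 and 2.53 CPM in siNC (1.07, SE 0.27, edgeR adjusted p = 0.104). NDFIP2, an adaptor that recruits and activates NEDD4-family ligases, was at 96.9 to 102.9 CPM against 119.9 to 175.8 CPM in siNC (-0.59, SE 0.16, edgeR adjusted p = 0.117). Neither gene's groups overlapped, and neither was called. NEDD4, the paralog of NEDD4L, had a level per kilobase 4.34 ± 0.470 times that of NEDD4L in siKMT2C and 4.48 ± 0.734 times in siNC (SD, n = 3). The largest value of this list, chosen after its values were seen, was that of the 14-3-3 gene YWHAB (1.25, SE 0.43, edgeR adjusted p = 0.197), whose products bind phosphorylated NEDD4L. YWHAB was at 209.4, 648 and 198.8 CPM in siKMT2C and at 164.7, 137.7 and 140.3 CPM in siNC. The groups did not overlap, and siKMT2C replicate 2 lay far above the other two.

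Steroid receptors and glucocorticoid-responsive genes, the class that SGK1 belongs to, had 8 of 10 genes tested, 7 with values below 0 and a median of -0.38. KLF9 (-0.56, SE 0.15, edgeR adjusted p = 0.114) and DUSP1 (-0.49, SE 0.16, edgeR adjusted p = 0.182) had groups that did not overlap. The glucocorticoid receptor NR3C1 was at -0.23 (SE 0.16), TSC22D3, the leucine zipper GILZ, at -0.41 (SE 0.29) and FKBP5 on the other side at 0.51 (SE 0.28). The mineralocorticoid receptor NR3C2 and HSD11B2, which shields it from cortisol, did not pass the filter.

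Of the other pump subunits, FXYD3, a small regulator of the sodium pump, came nearest to a call. It was at 28.6, 31.0 and 43.0 CPM in siKMT2C and 54.2, 62.7 and 78.5 CPM in siNC. All 3 siKMT2C libraries were below the siNC libraries (-0.93, SE 0.21, edgeR adjusted p = 0.0743), and replicate 3 was the highest of each group, as in AQP3. FXYD5, another member of that family, was at -0.08 (SE 0.15). Of 25 further sodium, chloride and potassium transport genes 16 were tested, 11 with values below 0 and a median of -0.29. KCNK1, a potassium channel, was at 30.3 to 36.3 CPM against 22.6 to 24.1 CPM in siNC (0.52, SE 0.14, edgeR adjusted p = 0.11), and CLCA2, a chloride conductance regulator of keratinocytes, at 58.7 to 62.1 CPM against 74.2 to 104.1 CPM in siNC (-0.57, SE 0.15, edgeR adjusted p = 0.115). Of 5 osmotic response genes 4 were tested; the inositol transporter SLC5A3 was at -0.26 (SE 0.13, edgeR adjusted p = 0.374) and the osmotic stress factor NFAT5 at 0.47 (SE 0.53, edgeR adjusted p = 0.721).

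**Figure D5:**
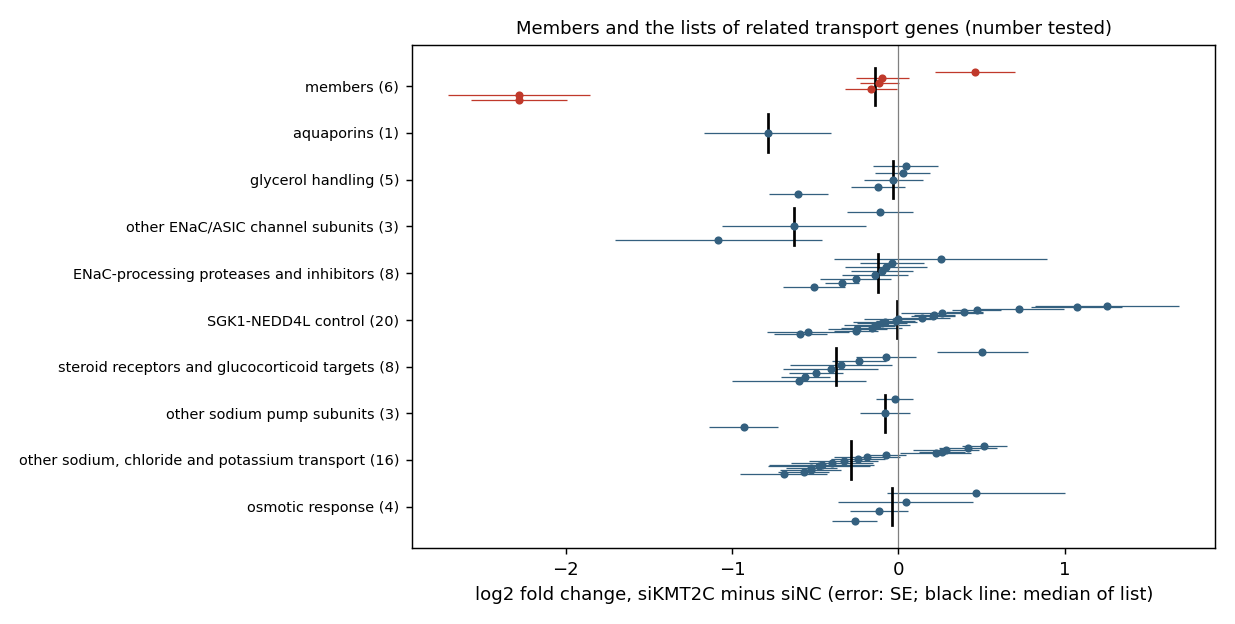
Log2 fold change (siKMT2C minus siNC) with its SE for the 6 tested members (red) and the tested genes of 9 related lists (blue; numbers in brackets), with each list's median as a black line. AQP3 and SCNN1A at -2.28 lie below every gene of the 9 lists, whose lowest value is -1.08 for SCNN1D. These 2 genes had been chosen as strongly lower in this comparison, which the genes of the lists had not.

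The genes whose log2 CPM over the 6 libraries most resembled that of AQP3, among 12854 compared, were FSD1 (Pearson r = 0.999), SFXN3 (0.996), DNAJC9 (0.996), CORO2A (0.995) and CASP9 (0.994). Those most like SCNN1A were NLRC5 (0.996), IRF1 (0.996), TFDP2 (0.995), ZNF185 (0.995) and CASTOR3P (0.990), the last a pseudogene whose reads may be shared. The 6 points share the libraries and the split between groups, which raises every such r. The 10 genes differed in size of change from their model: log2 fold changes ran from -0.16 (CORO2A) to -1.01 (CASP9) and from -0.16 (TFDP2) to -0.80 (NLRC5). AQP3 and SCNN1A shared the group difference but not the order of the siNC libraries, in which AQP3 was highest in replicate 3 and SCNN1A in replicate 2.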

How the data were processed

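The authors deposited 1 table with raw read counts per gene and with FPKM (fragments scaled by gene length and depth), per the file headers. CASAVA 1.8 and TopHat2 2.0.6 are named in the submitters' processing notes; the mouse build named there was not used, since the gene identifiers are human. The counting program, annotation and strand setting are not given in the sources used here. Symbols come from a gene name table, and positions and exon lengths from GENCODE 29 (GRCh38), which held 58039 of 58302 identifiers.

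Counts were fitted with edgeR 4.0.16 (filterByExpr, TMM, robust quasi-likelihood F test, Benjamini-Hochberg over 15063 genes, called at 0.05). The SE of a log2 fold change is its size over the root of F. On simulated data for siKMT2C against siNC (14835 genes) the fit recovered 45.6% of 2-fold and 98.1% of 4-fold changes, with 6 false calls. The simulated counts took the typical spread of genes at each level, without genes or libraries that vary more. These shares therefore need not hold for the real data. Alternatives were RLE factors, library size, no filter, a minimum of 1 CPM in 3 libraries, limma-voom (3.58.1), DESeq2 1.42.0, a replicate block and leaving out each library. The genes and lists were chosen with earlier results of these data known. Named from each list were called genes, otherwise the 2 with the smallest p; others are named for their role, and a few genes of the lists are not reported here. Nothing in the labels says that replicates were separate cultures, so p-values measure only the spread between these libraries. R 4.3.3 and Python 3.11.15 were used.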

Additional observations from a re-analysis of the deposited data

How the results depend on the processing

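The log2 fold changes of the 6 tested genes kept their sign under all 13 alternatives and moved by less than the spread between replicates. For AQP3 and SCNN1A, chosen as strongly lower and without overlap between groups, the sign could not have changed. With all libraries kept, AQP3 ranged from -2.31 to -2.27 and SCNN1A from -2.31 to -2.23. The count of genes called, 226, was 864 with DESeq2 and 968 with a replicate block, and from 16 to 620 with 1 library left out. Leaving out the siKMT2C libraries gave 20, 19 and 34, and leaving out the siNC libraries 52, 16 and 620, in replicate order; the cause was not tested. In the 9 related lists, 0 genes were called, but 1 with no filter (FXYD3, lower), 7 with DESeq2 (3 higher, 4 lower), 7 with a replicate block (all lower), and 0 to 4 with 1 library left out, the 4 without siNC replicate 3. Whether the replicate numbers pair the libraries could not be settled with 3 libraries per group. Deviations of same-numbered libraries correlated at 0.02, 0.11 and 0.39, and those of differently numbered ones at -0.36 to 0.32. Not every library correlated best with its own number. AQP3 and SCNN1A rest on 19 to 258 counts per library, and SCNN1B and SCNN1G were not detectable at this depth beyond 1 count.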
